A study of Mus musculus with 12 samples.

Results

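The genes described here encode the oxidative phosphorylation system of mitochondria and were read out in 4 sorted populations of differentiating mouse embryonic stem cells. They were chosen by name, with earlier results of these data known. The rule took every gene whose single annotated symbol starts with Nduf, Uqcr, Atp5 or Cox4i, Cox5, Cox6, Cox7 or Cox8, together with Sdha, Sdhb, Sdhc, Sdhd and Cyc1. This gave 91 of the 18193 genes on the array that had a probe set annotated to 1 gene, each read from the brightest, on average over the 12 arrays, of its probe sets. The 91 comprised 6 core and 28 accessory subunits of complex I, 8 complex I assembly factors (the Ndufaf genes), 4 subunits of complex II, 9 of complex III, 19 of complex IV and 17 of complex V. Ndufa4 and Ndufa4l2 were counted with complex IV, where NDUFA4 is now placed. The subunits encoded in mitochondrial DNA are outside the rule.

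The cells were embryonic stem cells grown as hanging drops into embryoid bodies, dissociated on day 6 and sorted by flow cytometry on a pair of transgenic reporters that all 4 populations share. A dsRed reporter is specific to the second heart field, the progenitor pool that forms the right heart and outflow tract, and eGFP is driven by a cardiac-specific enhancer. Double-positive cells carried both signals, red-only cells dsRed alone, green-only cells eGFP alone and double-negative cells neither, with 3 arrays per population from experiments labelled A, B and C. The parent line, the clone and the enhancers are not named in the labels, which also leave unsaid whether the experiments were separate cultures, so the p-values measure the spread between these arrays, which may be partly technical. Cells were sorted on these reporters, so other cell types can be present in each population.

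Oxidative phosphorylation couples the oxidation of NADH and succinate to ATP synthesis. Complexes I and II feed electrons into ubiquinone, complex III passes them to cytochrome c, complex IV reduces oxygen, and complex V, the ATP synthase, uses the proton gradient that complexes I, III and IV build. Heart muscle relies on it for most of its ATP, and mature heart and skeletal muscle carry their own isoforms of several complex IV subunits (COX6A2, COX7A1 and, in rodents, COX8B) in place of the ubiquitous ones.

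Values are deposited probe set intensities in linear units (array medians 6.29 to 6.73, range 2.09 to 8820), and log2 values were taken after adding 4.10 units. Of the 91 genes, 88 passed the filter on low values and were tested, and their fold changes are on that log2 scale, which understates changes of dim genes. Ndufb4, Cox7b2 and Cox7c had mean intensities of 3.9, 3.3 and 5.2 units and were left out. The summed intensity of 6 cardiomyocyte markers (Tnnt2, Myh6, Myl7, Actc1, Tnni1 and Myl4) ran from 17705 to 22204 in double-positive cells, from 3414 to 5186 in red-only cells, from 9202 to 11829 in green-only cells and from 338 to 513 in double-negative cells. The 6 pluripotency markers summed to 259 to 322 in double-positive cells, 125 to 171 in red-only cells, 158 to 201 in green-only cells and 1349 to 1648 in double-negative cells. The higher sum in double-positive than in single-reporter cells came from Tdgf1, which averaged 192 units in double-positive, 28.1 in red-only, 61.1 in green-only cells and 59.6 in double-negative cells. The other 5 had lower means in double-positive cells than in any other population. Double-positive and red-only cells had Nanog and Zfp42 under the array median on every array, as had green-only cells. Primitive erythroid markers (4 measured of 5) summed to 51.7 to 99.0 in double-positive cells, 54.2 to 136 in red-only cells and 75.4 to 110 in green-only cells, against 1062 to 1953 in double-negative cells. Smooth muscle markers summed to 3732 to 4883 in double-positive cells, 808 to 1275 in red-only cells and 2337 to 2490 in green-only cells, against 234 to 308 in double-negative cells. Acta2 gave most of each sum, with means of 3924 units (double-positive) and 185 (double-negative). Cnn1 was higher as well, at 130 against 15.9 units. Tagln overlapped between these populations (means 112 and 63.0), and Myh11 lay under the array median on all 12 arrays. Endothelial markers summed to 179 to 258 in double-positive cells, 449 to 656 in red-only cells and 259 to 804 in green-only cells, against 114 to 208 in double-negative cells. Endoderm markers summed to 81.2 to 157 in double-positive cells, 78.0 to 175 in red-only cells and 176 to 959 in green-only cells, against 168 to 534 in double-negative cells. Neural markers summed to 127 to 158 in double-positive cells, 104 to 107 in red-only cells and 124 to 145 in green-only cells, against 212 to 291 in double-negative cells. Green-only array A stood apart from arrays B and C, with Ttr at 417 units against 55.9 and 133, and Cdh5 at 25.2 against 96.2 and 94.1. These marker sums move with the populations compared here, and their part in the results was not tested.

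To place the genes on the genome, the stretch from 250 bases before to 50 bases after the annotated start was taken from RefSeq (GRCm38.p6) for the 74 of 91 genes with an entry. The NRF1 motif GCGCNTGCG, searched on both strands, lay in the promoter of 24 of these 74 genes (32.4%), against 7.1% of all 27025 genes in the table. The GABP motif CCGGAAG lay in 19 (25.7%, against 9.9%), the YY1 motif AAGATGGCG in 7 (9.5%, against 1.6%) and the ERR motif CAAGGTCA in 4 (5.4%, against 1.8%). The MEF2 consensus, searched by name with its degenerate letters, lay in 0 of the 74 (against 3.7%). NRF1 and GABP are known as activators of nuclear genes for the respiratory chain, ERR factors as partners of PGC-1α, and MEF2 as a muscle transcription factor. Motif matches are a description of these windows and no evidence of binding. By the call in double-positive against double-negative cells given further on, the NRF1 motif lay in 19 of 52 genes that were higher, in 1 of 3 that were lower and in 4 of 19 without a call (tested or not). The promoters below are those of a muscle and a ubiquitous isoform that moved by different amounts (Cox7a1, Cox7a2), of c-subunit genes that moved in opposite directions (Atp5g3, Atp5g2), and of Sdhd, whose window held the NRF1, GABP and ERR motifs. Each reads 5′ to 3′ along the gene, with motif matches in capitals.
Cox7a1, chr7:30183921-30184220, plus strand: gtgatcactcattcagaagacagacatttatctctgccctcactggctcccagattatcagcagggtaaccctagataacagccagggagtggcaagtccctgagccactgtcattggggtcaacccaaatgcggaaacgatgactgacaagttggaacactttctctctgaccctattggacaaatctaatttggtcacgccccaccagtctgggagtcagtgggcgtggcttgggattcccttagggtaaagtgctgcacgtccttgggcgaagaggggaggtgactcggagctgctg
Cox7a2, chr9:79759804-79760103, minus strand: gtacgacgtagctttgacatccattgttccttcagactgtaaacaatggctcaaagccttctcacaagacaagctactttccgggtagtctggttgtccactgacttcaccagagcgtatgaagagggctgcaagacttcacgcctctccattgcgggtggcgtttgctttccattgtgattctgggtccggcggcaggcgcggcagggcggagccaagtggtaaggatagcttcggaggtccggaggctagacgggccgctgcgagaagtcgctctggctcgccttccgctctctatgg
Atp5g3, chr2:73911277-73911576, minus strand: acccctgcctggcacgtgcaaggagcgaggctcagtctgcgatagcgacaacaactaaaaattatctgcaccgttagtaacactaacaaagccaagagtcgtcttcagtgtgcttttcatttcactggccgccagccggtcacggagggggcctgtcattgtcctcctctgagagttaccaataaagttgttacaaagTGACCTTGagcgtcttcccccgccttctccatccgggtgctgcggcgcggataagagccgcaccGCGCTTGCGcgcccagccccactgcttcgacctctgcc
Atp5g2, chr15:102670998-102671297, minus strand: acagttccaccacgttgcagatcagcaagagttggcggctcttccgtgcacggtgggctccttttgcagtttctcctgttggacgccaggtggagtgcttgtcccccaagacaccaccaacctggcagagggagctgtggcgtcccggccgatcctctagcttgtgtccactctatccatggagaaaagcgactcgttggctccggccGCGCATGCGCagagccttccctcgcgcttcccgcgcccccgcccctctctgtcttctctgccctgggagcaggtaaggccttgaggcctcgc
Sdhd, chr9:50603800-50604099, minus strand: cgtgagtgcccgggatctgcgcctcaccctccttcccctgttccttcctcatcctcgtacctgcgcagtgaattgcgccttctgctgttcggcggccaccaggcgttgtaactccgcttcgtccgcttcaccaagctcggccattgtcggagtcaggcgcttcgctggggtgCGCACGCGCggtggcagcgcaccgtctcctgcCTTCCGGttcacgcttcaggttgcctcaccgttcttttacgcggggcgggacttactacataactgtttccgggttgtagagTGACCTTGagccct
In Atp5g3 the capitals mark 1 ERR and 1 NRF1 match, in Atp5g2 an NRF1 match that reads on both strands, and in Sdhd, in order, an NRF1, a GABP and an ERR match. The windows of Cox7a1 and Cox7a2 held none of the 5 motifs.

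The oxidative phosphorylation genes as a group stood higher in double-positive cells, set against double-negative cells, in every complex. Of the 88 tested, 66 were higher and 4 lower (limma, adjusted p under 0.05 over all 13698 genes tested), where 13.9% of all genes tested were higher and 17.6% lower. Their median log2 fold change was 0.41, beside -0.01 for all genes. Within the experiments the median was 0.48 in A, 0.38 in B and 0.29 in C, with 81, 80 and 75 of the 88 genes on the positive side. The changes were small: of the 66 genes, only Cox6a2, Cox7a1 and Ndufv3 exceeded 2-fold. In sorted populations, fewer cells of a type and less RNA per cell cannot be told apart. Leaving out each of the 12 arrays in turn gave 53 to 66 higher genes and 4 lower ones each time, and 56 of the 70 calls held throughout.

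**Figure D1:**
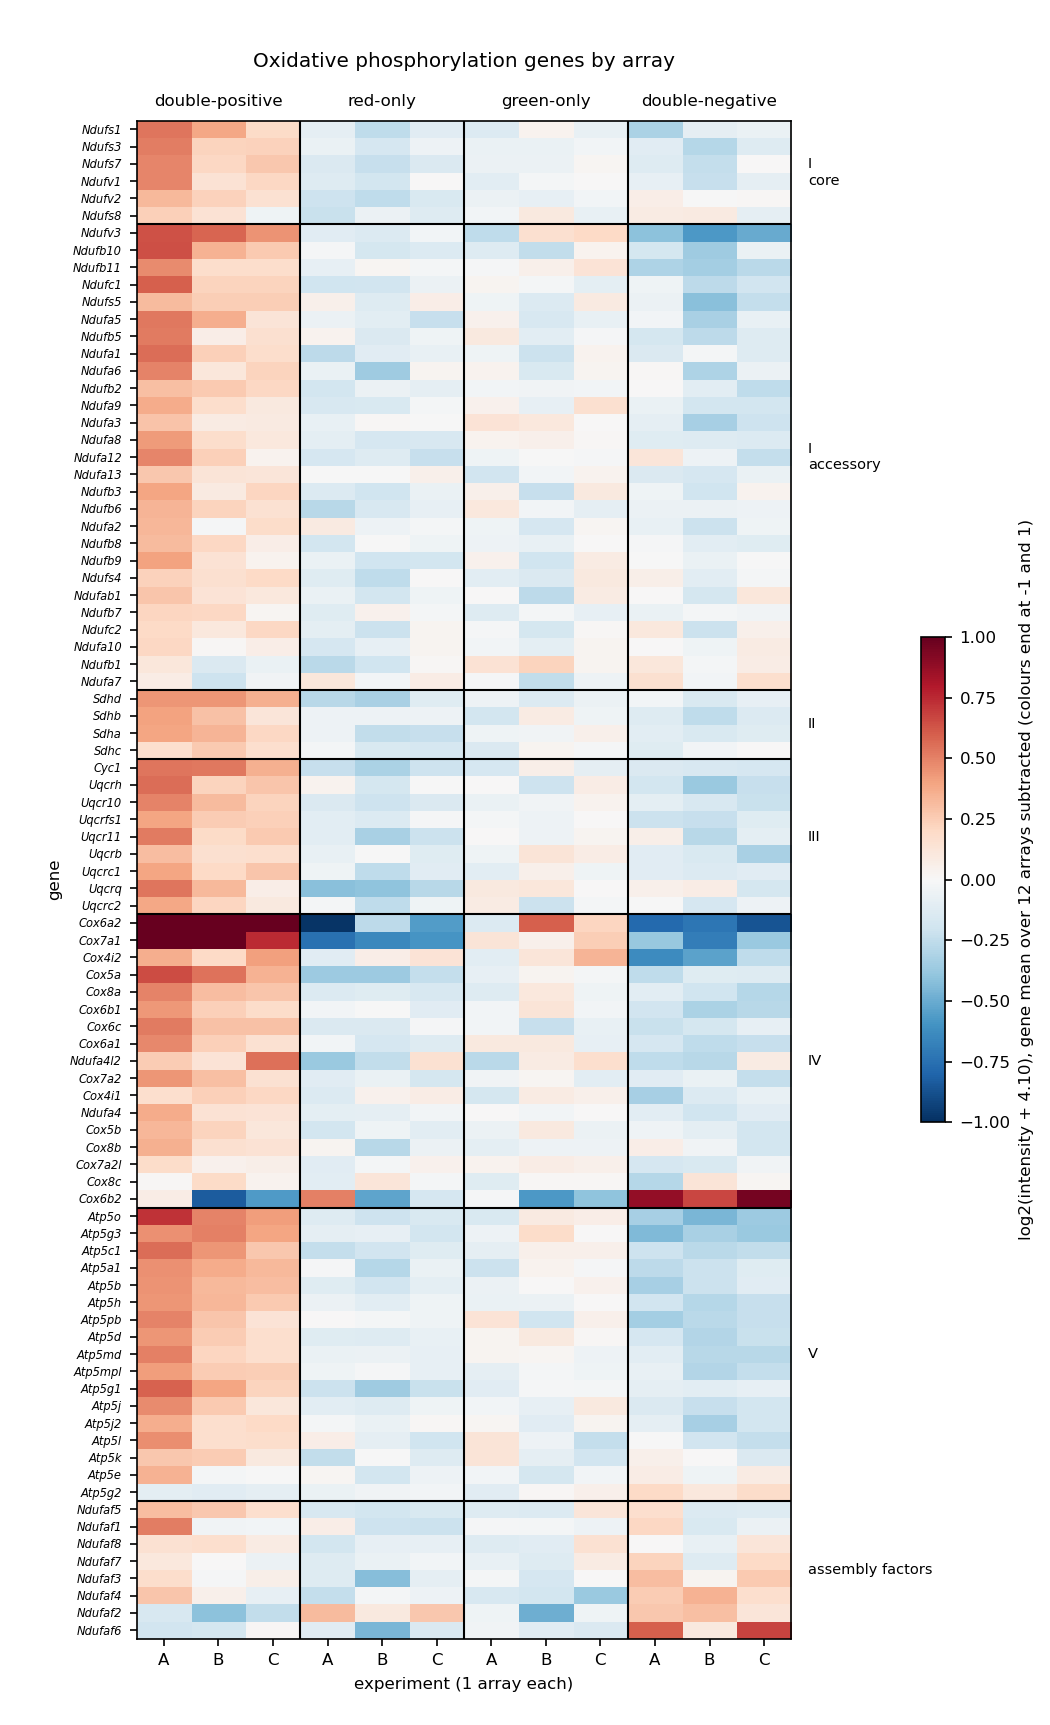
Each row is 1 of the 88 tested genes and each column 1 array, grouped by population and labelled by experiment. Colour gives log2(intensity + 4.10) minus the gene's mean over the 12 arrays, and genes are ordered within each complex by double-positive minus double-negative. Red fills the double-positive columns in complexes I to V, most strongly in experiment A, while Cox6b2, Atp5g2 and several assembly factors are highest in double-negative cells.

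The double-positive array of experiment A stood above the other double-positive arrays. It lay above its population's mean for 83 of the 88 genes (median deviation 0.14), against 25 of 88 for array B and 10 of 88 for array C. It also had the highest 3′ to 5′ ratio of the actin control probe sets, 1.545, with 1.472 and 1.399 on the other double-positive arrays, 1.321 to 1.480 in red-only, 1.333 to 1.444 in green-only and 1.336 to 1.363 in double-negative cells. The GAPDH ratio did not set it apart, at 0.945, within 0.942 to 0.951 in double-positive, 0.918 to 0.982 in red-only, 0.883 to 1.007 in green-only cells and 0.910 to 0.970 in double-negative cells. The part of RNA quality in the results was not tested. Without that array 53 genes were still higher against double-negative cells. With experiment A left out whole, 52 were.

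Genes are named by the rule given with the processing, and a few others were named after their values were seen. Complex I takes electrons from NADH through a flavin and a chain of iron-sulfur clusters held by its core subunits. Of 6 core subunits 5 were higher in double-positive cells (median 0.43). Ndufs1, which holds iron-sulfur clusters of the NADH-oxidising arm, read 184, 166 and 144 units in double-positive cells, 118, 105 and 116 in red-only cells, 114, 129 and 119 in green-only cells, and 100, 118 and 120 in double-negative cells. Every double-positive array lay above all others, and the log2 fold change against double-negative cells was 0.53 ± 0.10 (SE, adjusted p = 0.00142). Ndufs1 had the largest change of the 6 and was named after its values were seen. Ndufv2, the core subunit named by the rule, changed by 0.21 (adjusted p = 0.0318). That call was lost in at least 1 fit that left out 1 array, and its other probe sets did not pass (0.20 and 0.24). Ndufs8, another iron-sulfur subunit, did not pass (0.09 ± 0.09, adjusted p = 0.551).

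Accessory subunits surround the core and do not carry electrons. Of 27 tested, 18 were higher (median 0.31). The largest increase among them was that of Ndufv3, a subunit attached to the NADH-binding module. It read 970, 933 and 851 units in double-positive cells, 573, 564 and 610 in red-only cells, 522, 694 and 714 in green-only cells, and 466, 416 and 437 in double-negative cells. The double-positive arrays lay above every other array and the double-negative arrays below every other. Its log2 fold change was 1.05 ± 0.11 (adjusted p = 1.05e-05) in double-positive cells, 0.40 ± 0.11 (adjusted p = 0.0170) in red-only cells and 0.53 ± 0.11 (adjusted p = 0.00374) in green-only cells, each against double-negative cells. The red-only call was lost without red-only array C or double-negative array B. The 9 accessory subunits that did not pass ranged from -0.16 (Ndufa7) to 0.31 (Ndufa12). With the experiment as a block, Ndufa12 (adjusted p = 0.0200) and Ndufs4 (0.22, adjusted p = 0.0377) passed as well.

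Complex II, succinate dehydrogenase, is shared with the citric acid cycle and is encoded wholly in the nucleus. All 4 subunits were higher in double-positive cells. The membrane anchor Sdhd read 396, 396 and 372 units in double-positive cells, 238, 231 and 266 in red-only cells, 280, 263 and 278 in green-only cells, and 284, 260 and 273 in double-negative cells. The other populations overlapped double-negative cells, and the double-positive arrays stood above them all, at 0.51 ± 0.07 (adjusted p = 1.82e-04). The flavoprotein Sdha changed by 0.44 ± 0.08 (adjusted p = 6.47e-04) and the iron-sulfur subunit Sdhb by 0.45 ± 0.09 (adjusted p = 0.00174). The second anchor subunit, Sdhc, changed by 0.25 ± 0.08 (adjusted p = 0.0226), a call that was lost without double-positive array B or double-negative array A. A dimmer probe set of Sdhc (mean 108.1 units) gave 0.56 ± 0.12 (adjusted p = 0.00272). That of Sdhd (mean 15.6 units) did not pass (0.17 ± 0.13, adjusted p = 0.407).

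Complex III hands electrons from ubiquinol to cytochrome c. All 9 subunits were higher in double-positive cells, between 0.31 and 0.63. The calls of Uqcrc2 and Uqcrq were each lost in at least 1 fit that left out 1 array. Their other probe sets did not pass (0.28 for Uqcrc2, and 0.03 to 0.08 for Uqcrq on dim ones). Cytochrome c1 (Cyc1), its haem-bearing subunit, read 687, 683 and 605 units in double-positive cells, 403, 378 and 408 in red-only cells, 421, 492 and 444 in green-only cells, and 428, 423 and 421 in double-negative cells. Its log2 fold change in double-positive cells was 0.63 ± 0.08 (adjusted p = 5.43e-05). The red-only arrays lay below all double-negative arrays, by a log2 difference of -0.10 ± 0.08 that did not pass (adjusted p = 0.461).

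**Figure D2:**
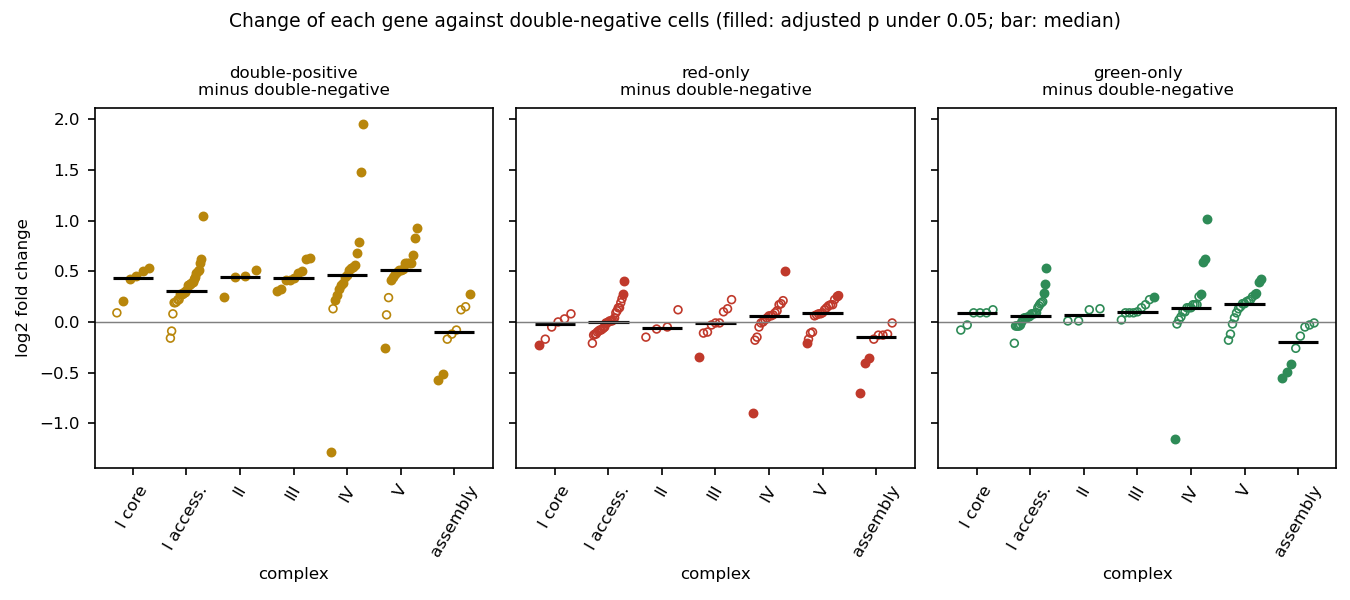
Log2 fold change of each of the 88 tested genes against double-negative cells, with panels for double-positive, red-only and green-only, from left to right. Filled points passed an adjusted p of 0.05, and bars are medians per complex. In double-positive cells the bars of complexes I to V lie between 0.31 and 0.51, and those of both single-reporter populations between -0.06 and 0.18.

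Complex IV, cytochrome c oxidase, gave both the largest increases and the largest decrease. Of 17 tested genes 15 were higher and 1 lower in double-positive cells (median 0.46). Cox5a, a ubiquitous nuclear subunit, read 1274, 1178 and 1029 units in double-positive cells, 627, 629 and 686 in red-only cells, 764, 823 and 796 in green-only cells, and 678, 745 and 738 in double-negative cells. The double-positive arrays lay above all others, and the log2 fold change against double-negative cells was 0.68 ± 0.09 (adjusted p = 5.43e-05).

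The muscle isoforms Cox6a2 and Cox7a1 had larger fold changes than their ubiquitous partners. Cox6a2, the heart and skeletal muscle form of subunit VIa, read 83.3, 89.2 and 76.2 units in double-positive cells, 15.5, 28.2 and 22.2 in red-only cells, 31.2, 54.7 and 41.0 in green-only cells, and 18.5, 19.4 and 17.2 in double-negative cells. Double-positive arrays were highest, green-only arrays came next without overlap, and red-only and double-negative arrays overlapped. Against double-negative cells the log2 fold change was 1.95 ± 0.18 (3.86-fold, adjusted p = 4.30e-06) in double-positive cells, 1.02 ± 0.18 (2.02-fold, adjusted p = 0.00156) in green-only cells and 0.18 ± 0.18 (adjusted p = 0.548) in red-only cells. A second, dimmer probe set (mean 10.4 units) gave 0.80 ± 0.09 in double-positive cells (adjusted p = 1.77e-05). The ubiquitous Cox6a1 read 1589, 1343 and 1270 units in double-positive cells, 1121, 1015 and 1040 in red-only cells, 1217, 1217 and 1076 in green-only cells, and 1014, 953 and 970 in double-negative cells. It was also highest in double-positive cells, but by 0.51 ± 0.09 (1.42-fold, adjusted p = 8.41e-04).

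Cox7a1, the muscle form of subunit VIIa, followed the same order. It read 36.5, 35.8 and 26.8 units in double-positive cells, 6.87, 7.70 and 8.15 in red-only cells, 16.1, 15.0 and 17.8 in green-only cells, and 10.1, 7.31 and 10.2 in double-negative cells. Red-only and double-negative arrays overlapped near the array medians. The log2 fold change was 1.48 ± 0.12 (2.79-fold, adjusted p = 1.02e-06) in double-positive cells, 0.62 ± 0.12 (1.54-fold, adjusted p = 0.00217) in green-only cells and -0.18 ± 0.12 (adjusted p = 0.323) in red-only cells, each against double-negative cells. Cox7a2, its ubiquitous partner, read 1951, 1765 and 1595 units in double-positive cells, 1321, 1368 and 1269 in red-only cells, 1401, 1450 and 1331 in green-only cells, and 1324, 1371 and 1211 in double-negative cells. Its increase in double-positive cells was 0.44 ± 0.09 (1.36-fold, adjusted p = 0.00149).

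The third muscle isoform was too dim to judge. Cox8b read 8.93, 7.30 and 7.13 units in double-positive cells, 6.25, 4.28 and 5.69 in red-only cells, 5.41, 5.73 and 5.72 in green-only cells, and 6.54, 5.84 and 4.86 in double-negative cells. These values lie near the array medians in every population, so its log2 differences are compressed and do not show whether it moved with the others. The difference between double-positive and double-negative cells, 0.27 ± 0.10, passed narrowly (adjusted p = 0.0475) and was lost in 8 of the 12 fits that left out 1 array, double-positive array A among them. Its ubiquitous partner Cox8a read 1258, 1103 and 1078 units in double-positive cells, 808, 819 and 795 in red-only cells, 812, 956 and 866 in green-only cells, and 828, 776 and 729 in double-negative cells, and it rose by 0.56 ± 0.09 (adjusted p = 2.71e-04).

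Per array, the log2 difference Cox6a2 minus Cox6a1 was -4.01 ± 0.17 in double-positive cells, -5.38 ± 0.44 in red-only cells, -4.69 ± 0.38 in green-only cells and -5.45 ± 0.09 in double-negative cells (SD, n = 3). It thus shifted by 1.44 in double-positive and by 0.76 in green-only cells relative to double-negative cells, without overlap of arrays, and by 0.07 with overlap in red-only cells. On second probe sets this shift was 0.32 in double-positive and 0.24 in green-only cells. The difference Cox7a1 minus Cox7a2 shifted by 1.04 in double-positive cells and by 0.52 in green-only cells without overlap, and by -0.20 with overlap in red-only cells. For Cox8b minus Cox8a the shift was -0.28 in double-positive cells, and the 3 double-positive arrays lay below the 3 double-negative ones. These shifts compare populations within a pair. The intensity of 1 probe set was not set against that of another as a level, and no test was made of the shifts.

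**Figure D3:**
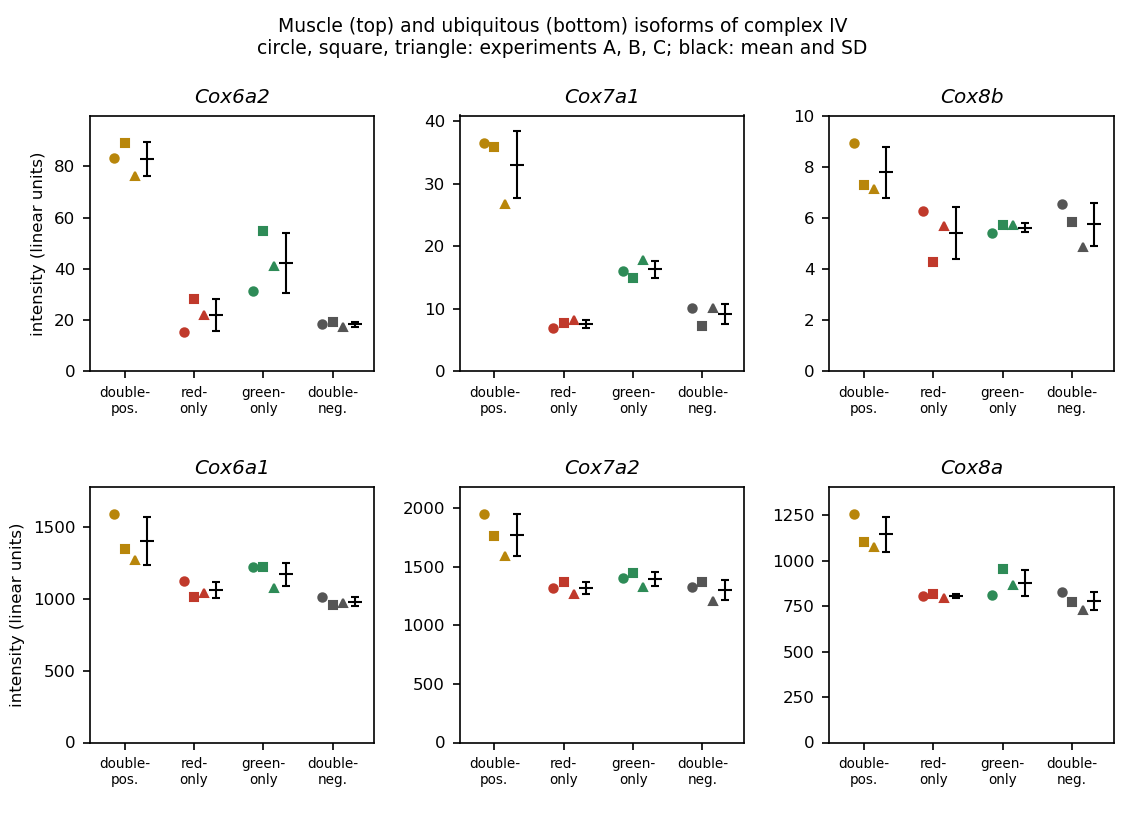
Intensity in linear units per array for the muscle isoforms Cox6a2, Cox7a1 and Cox8b (top) and their ubiquitous partners Cox6a1, Cox7a2 and Cox8a (bottom). Symbols are experiments A, B and C and black marks are mean and SD (n = 3). Cox6a2 averages 82.9 units in double-positive, 22.0 in red-only, 42.3 in green-only cells and 18.4 in double-negative cells, whereas Cox8b stays under 10 units throughout.

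Other complex IV isoforms moved in both directions. Cox6b2, known as the testis form of subunit VIb, read 46.6, 23.0 and 28.5 units in double-positive cells, 64.3, 29.4 and 38.8 in red-only cells, 43.9, 28.3 and 32.5 in green-only cells, and 84.6, 72.8 and 89.8 in double-negative cells. All 9 arrays of reporter-bearing cells lay below the 3 double-negative arrays, and in each reporter-bearing population array A was the highest. The log2 fold change was -1.28 ± 0.26 (adjusted p = 0.00186) in double-positive cells, -0.90 ± 0.26 (adjusted p = 0.0216) in red-only cells and -1.16 ± 0.26 (adjusted p = 0.00579) in green-only cells. The red-only call was lost without red-only array B or C or double-negative array A or C. Its ubiquitous partner Cox6b1 was higher in double-positive cells, at 0.54 ± 0.08 (adjusted p = 2.62e-04).

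Cox4i2, the oxygen-responsive form of subunit IV, was higher in all 3 reporter-bearing populations. It read 25.3, 22.1 and 26.2 units in double-positive cells, 17.0, 19.9 and 21.0 in red-only cells, 17.2, 20.7 and 24.9 in green-only cells, and 10.7, 11.7 and 15.1 in double-negative cells. The log2 fold change was 0.79 ± 0.13 (adjusted p = 3.19e-04), 0.50 ± 0.13 (adjusted p = 0.0105) and 0.59 ± 0.13 (adjusted p = 0.00446). These are the differences of double-positive, then red-only, then green-only from double-negative cells. The red-only call was lost without double-negative array A. The main isoform Cox4i1 changed by 0.38 ± 0.09 in double-positive cells (adjusted p = 0.00711). Ndufa4 changed by 0.36 ± 0.08 (adjusted p = 0.00271), and its paralogue Ndufa4l2 by 0.46 ± 0.16 (adjusted p = 0.0435), a call lost in 6 of the fits that left out 1 array. Cox8c, a testis form of subunit VIII, did not pass (0.13 ± 0.11, adjusted p = 0.440).

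Complex V had the highest median of the complexes, 0.51, with 14 of 17 genes higher and 1 lower in double-positive cells. Atp5o, the stalk subunit that confers oligomycin sensitivity, read 1040, 887 and 841 units in double-positive cells, 576, 543 and 565 in red-only cells, 567, 670 and 660 in green-only cells, and 499, 457 and 488 in double-negative cells. The double-positive arrays lay above every other array, at 0.93 ± 0.09 against double-negative cells (1.90-fold, adjusted p = 7.42e-06). Atp5a1 and Atp5b, the alpha and beta subunits that alternate in the head of the enzyme, the beta subunit carrying the catalytic sites, both changed by 0.58 (SE 0.09 and 0.08, adjusted p = 3.37e-04 and 7.56e-05).

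The genes of the membrane c-ring moved apart. Atp5g1, Atp5g2 and Atp5g3 encode the same mature subunit c with different import sequences. Atp5g3 read 2354, 2424 and 2247 units in double-positive cells, 1604, 1618 and 1504 in red-only cells, 1653, 1948 and 1713 in green-only cells, and 1261, 1367 and 1325 in double-negative cells, and changed by 0.83 ± 0.08 in double-positive cells (adjusted p = 4.65e-06). Atp5g1 read 414, 361 and 321 units in double-positive cells, 236, 213 and 235 in red-only cells, 253, 272 and 271 in green-only cells, and 258, 255 and 259 in double-negative cells, and changed by 0.49 ± 0.09 (adjusted p = 8.94e-04). Both were higher on every double-positive array than on any other. Atp5g2 read 671, 665 and 675 units in double-positive cells, 685, 699 and 704 in red-only cells, 662, 724 and 743 in green-only cells, and 823, 771 and 815 in double-negative cells. It was lower in double-positive cells, at -0.26 ± 0.07 (adjusted p = 0.0102), with all 9 reporter-bearing arrays below the double-negative ones.

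**Figure D4:**
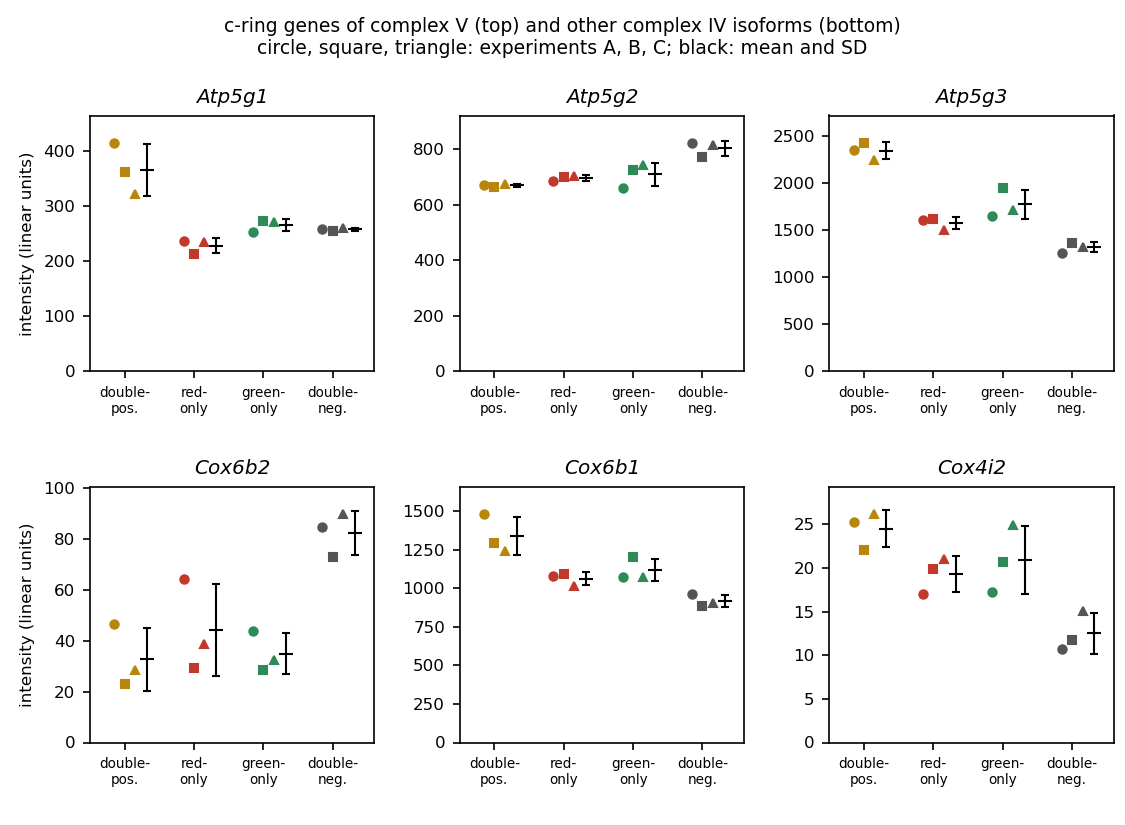
Intensity in linear units per array for the subunit c genes Atp5g1, Atp5g2 and Atp5g3 (top) and for Cox6b2, Cox6b1 and Cox4i2 of complex IV (bottom). Symbols are experiments A, B and C and black marks are mean and SD (n = 3). Atp5g3 averages 2342 units in double-positive and 1318 in double-negative cells, Atp5g2 averages 670 in double-positive and 803 in double-negative cells, and Cox6b2 averages 32.7 in double-positive and 82.4 in double-negative cells.

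The Ndufaf genes build complex I and are not part of it. Against double-negative cells, 1 of 8 (12.5%, beside 13.9% of all genes) was higher in double-positive cells (Ndufaf5, 0.28 ± 0.10, adjusted p = 0.0428, lost in 7 of the fits that left out 1 array) and 2 were lower, with a median of -0.10. Against red-only cells their median was 0.22, with 7 of 8 positive, and against green-only cells 0.15, with 6 of 8 positive. The difference between these genes and the subunits was not tested. Ndufaf6 read 12.6, 12.8 and 15.1 units in double-positive cells, 13.5, 9.80 and 13.1 in red-only cells, 14.5, 13.5 and 13.1 in green-only cells, and 24.7, 16.3 and 26.3 in double-negative cells. Its log2 fold change was -0.57 ± 0.14 (adjusted p = 0.00615) in double-positive cells. Ndufaf2 read 34.2, 28.2 and 32.1 units in double-positive cells, 49.3, 41.7 and 47.6 in red-only cells, 37.6, 26.5 and 37.5 in green-only cells, and 47.7, 48.8 and 42.6 in double-negative cells. It was lower in double-positive (-0.51 ± 0.12, adjusted p = 0.00585) and green-only cells (-0.42 ± 0.12, adjusted p = 0.0238, lost without green-only array B or double-negative array A or B), and its red-only arrays overlapped the double-negative ones.

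The single-reporter populations were each set against double-negative cells. Both comparisons use the same double-negative arrays as the one above. In red-only cells 4 genes were higher and 7 lower than in double-negative cells, where 10.9% and 12.7% of all genes tested were, with a median of 0.00. The 4 higher were Cox4i2, Ndufv3, Ndufb11 (0.28) and Atp5g3 (0.26). Those lower were Cox6b2, Ndufaf6 (-0.70), Ndufaf3 (-0.41), Ndufaf4 (-0.36), Uqcrq (-0.35), Ndufv2 (-0.23) and Atp5g2 (-0.21). Only Ndufaf6 kept its call in all 12 fits that left out 1 array. The higher count was 2 when red-only array B, red-only array C or any 1 of the double-negative arrays was omitted, and the lower count was 3 without red-only array A, 2 without red-only array B, 1 without double-negative array A and 4 without double-negative array C. In green-only cells 11 were higher and 4 lower, where 9.34% and 11.4% of all genes were, with a median of 0.09. The higher genes included Cox6a2, Cox7a1, Cox4i2, Ndufv3 and Atp5g3, and the lower ones were Cox6b2, Ndufaf6, Ndufaf4 and Ndufaf2. The green-only counts dropped to 7 higher without double-negative array B and to 2 lower without double-negative array A. With the experiment as a block, Cox6a1 also passed in green-only cells (0.25, adjusted p = 0.0267).

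Double-positive cells were higher than either single-reporter population. Against red-only cells 56 genes were higher and 1 (Ndufaf2, -0.50 ± 0.12) lower, where 5.94% and 6.17% of all genes were, and the median was 0.36 (0.50, 0.36 and 0.25 within experiments A, B and C). The largest increases were those of Cox6a2 (1.77), Cox7a1 (1.66), Cox5a (0.83), Cyc1 (0.72) and Atp5o (0.71). Without double-positive array A the count was 35, and the Ndufaf2 call was lost without double-positive array B or red-only array A or C. Against green-only cells 29 were higher and 0 lower (limma; 67 and 0 at an unadjusted p under 0.05), where 2.85% and 2.77% of all genes were, and the median was 0.28 (0.43, 0.25 and 0.17 within experiments A, B and C). Cox6a2 (0.93), Cox7a1 (0.86), Atp5o (0.54), Cox5a (0.54) and Cyc1 (0.54) led. That count moved with the arrays and the fit. It was 41 with the experiment as a block (69 against red-only cells), 10 without double-positive array A, 16 without green-only array A, 19 without green-only array C and 5 in a fit of the 6 arrays compared. With the experiment as a block Sdhb also passed against green-only cells (0.32, adjusted p = 0.0486).

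Between the single-reporter populations, 0 genes were higher and 2 lower in red-only than in green-only cells (limma; 1 and 9 at an unadjusted p under 0.05), where 1.32% and 1.77% of all genes were. The 2 were the muscle isoforms Cox6a2 (-0.83 ± 0.18, adjusted p = 0.0274) and Cox7a1 (-0.80 ± 0.12, adjusted p = 0.00263). The Cox6a2 call was lost, and the count was 1, without red-only array A or C or green-only array B or C. With the experiment as a block 1 gene, Ndufaf2, was higher (0.42) and 3 were lower. All 6 cardiomyocyte markers were lower in red-only than in green-only cells as well, and their part in this difference was not tested.

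The interaction of the reporters asks whether double-positive cells depart from the sum of the separate red-only and green-only differences on the log2 scale. It was positive for 83 of the 88 genes, with a median of 0.30 beside 0.03 for all genes. It passed for 12 genes in the positive and 0 in the negative direction (limma; 43 and 0 at an unadjusted p under 0.05), where 4.80% and 5.67% of all genes passed. The count was 7 without double-positive array A or without double-negative array A, and 19 with the experiment as a block. Among those that passed, Cox7a1 had the largest value, 1.04 ± 0.17 (adjusted p = 0.00186), followed by Cox5a (0.69 ± 0.12, adjusted p = 0.00330). Sdhd (0.65 ± 0.10, adjusted p = 0.00207), Cyc1 (0.63 ± 0.11, adjusted p = 0.00343), Atp5g1 (0.62 ± 0.13, adjusted p = 0.00733) and Ndufv2, a core iron-sulfur subunit of complex I (0.52 ± 0.10, adjusted p = 0.00437), belonged to complexes II, III, V and I. For the 5 genes other than Cox7a1 the single-reporter populations differed from double-negative cells by -0.23 to 0.14, and of these differences only that of Ndufv2 in red-only cells passed. Cox6a2, with a larger increase in double-positive cells, did not pass (0.75 ± 0.26, adjusted p = 0.0874).

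**Figure D5:**
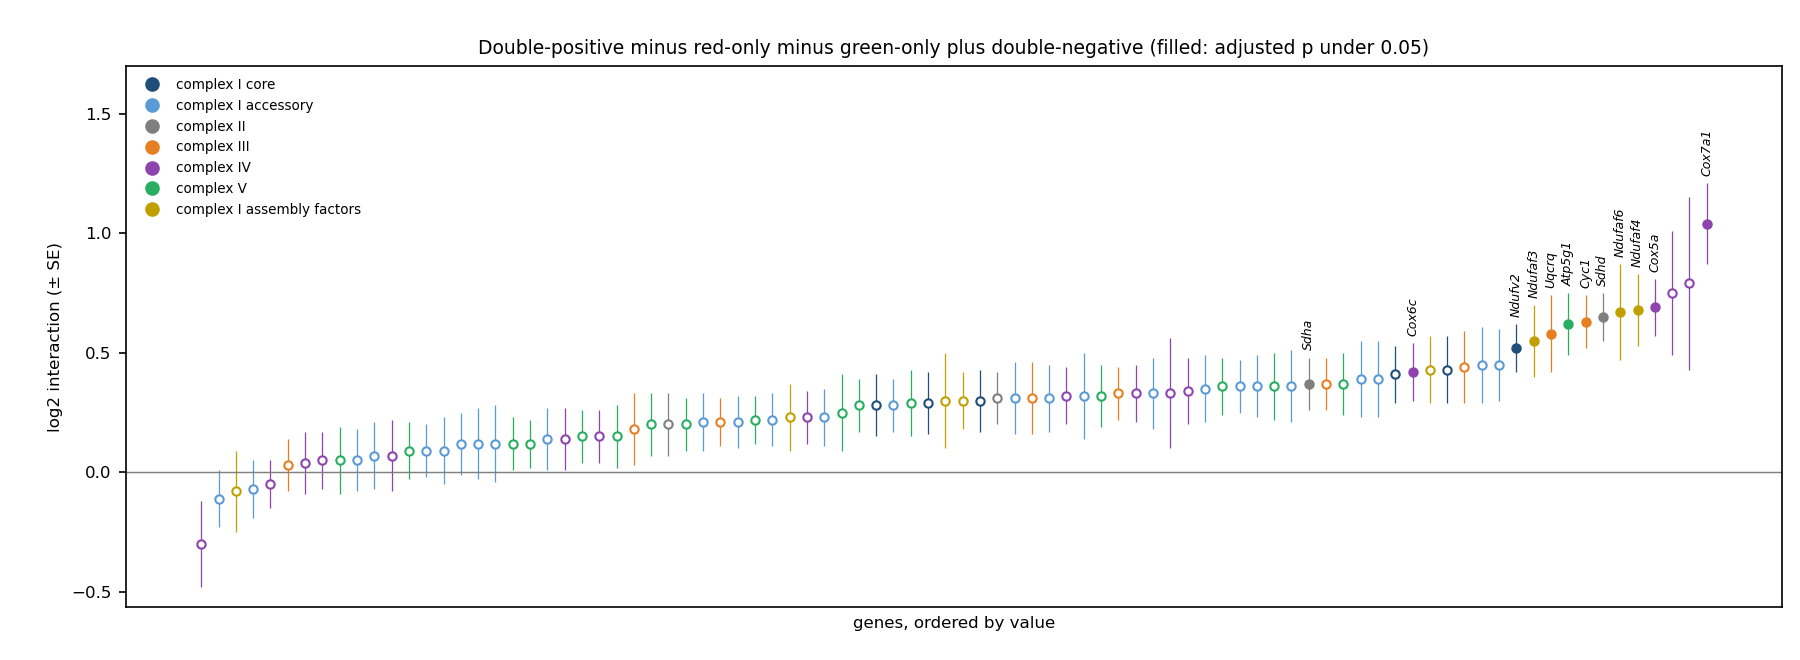
Interaction of the reporters (double-positive minus red-only minus green-only plus double-negative, log2) for the 88 tested genes in order of value, with SE. Filled and named points passed an adjusted p of 0.05, and colour gives the complex. In all 83 points lie above 0, and the 12 that passed run from 0.37 (Sdha) to 1.04 (Cox7a1).

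Across the 4 populations 66 of the 88 genes differed by the F-test (32.3% of all genes did). Double-positive cells had the highest mean for 79 of the 88 genes (89.8%, beside 28.3% of all genes). The lowest mean was in double-negative cells for 44 of the 88 genes, beside 31.1% of all genes. It was in red-only cells for 37 of the 88, beside 23.8% of all genes. The order double-positive, green-only, red-only, double-negative held for 36 of the 88 genes, and the same with double-negative above red-only for 21. No share of all genes was computed for these orders. A set of 12 genes had no call in any pairwise comparison or in the interaction: the complex I subunits Ndufa7, Ndufa10, Ndufab1, Ndufb1, Ndufb7, Ndufc2 and Ndufs8, the assembly factors Ndufaf1, Ndufaf7 and Ndufaf8, and Cox8c and Atp5e. No share of all genes is given beside this count, so it is a description only. Other probe sets of the oxidative phosphorylation genes served as a check on the double-positive against double-negative calls. Of those tested for called genes, 35 (28 genes) passed in the same direction, 12 (9 genes) did not pass and 0 passed in the opposite one.

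Genes that work beside the complexes were counted in double-positive against double-negative cells as well. Of 12 citric acid cycle genes 7 were higher (58.3%, beside 13.9% of all genes, median 0.42), among them citrate synthase (Cs, 0.92 ± 0.10, adjusted p = 2.05e-05), Ogdh (0.62), Idh3a (0.57) and Mdh2 (0.56). The Ogdh call did not hold on its second probe set (-0.01). Of 10 carriers and electron transfer proteins 5 were higher (50%, median 0.38). Slc25a4, the heart and muscle ADP/ATP carrier, read 1904, 1822 and 1811 units in double-positive cells, 904, 1099 and 1196 in red-only cells, 1039, 1198 and 1276 in green-only cells, and 524, 573 and 671 in double-negative cells (1.65 ± 0.12, adjusted p = 3.61e-07). Of 31 genes for assembly of the complexes (Ndufaf genes aside) and for cofactors 7 were higher (22.6%, median 0.07). The list includes complex I assembly factors such as Nubpl and Ecsit. The copper chaperone Cox17 (0.74 ± 0.10, adjusted p = 9.89e-05) had the largest increase. Of 17 tested regulators of mitochondrial biogenesis 3 were higher (17.6%, near the 13.9% of all genes). Another 6 were lower, where 17.6% of all genes were lower, and the median was -0.08.

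Among those regulators, the 4 largest changes were those of Ppargc1a and Esrrg, which were higher, and of Pprc1 and Gabpb1, which were lower. Ppargc1a, the coactivator PGC-1α, read 61.7, 33.4 and 31.4 units in double-positive cells, 8.03, 7.28 and 7.70 in red-only cells, 14.3, 16.3 and 9.47 in green-only cells, and 4.27, 4.27 and 4.35 in double-negative cells. Its double-positive arrays lay above all others, at 2.40 ± 0.20 against double-negative cells (adjusted p = 1.36e-06). Its double-negative values lie under the array medians, and those of Esrrg near or under them, so the sizes of both folds depend on the pseudocount and are not exact. Esrrg, a nuclear receptor that partners PGC-1α in heart, read 51.7, 49.0 and 41.6 units in double-positive cells, 17.5, 23.8 and 20.6 in red-only cells, 24.9, 33.7 and 32.7 in green-only cells, and 4.82, 6.70 and 5.15 in double-negative cells (2.42 ± 0.13, adjusted p = 2.42e-08). Pprc1, a related coactivator, ran the other way, with 46.5, 45.4 and 40.8 units in double-positive cells, 65.0, 67.1 and 68.0 in red-only cells, 62.8, 52.1 and 58.4 in green-only cells, and 110, 95.9 and 109 in double-negative cells (-1.17 ± 0.09, adjusted p = 4.45e-07). Gabpb1, a subunit of GABP, was lower in double-positive cells by -0.91 ± 0.12 (adjusted p = 8.78e-05). Nrf1 and Tfam were named after their values were seen. Nrf1, the gene of NRF1 itself, read 26.6, 30.2 and 27.3 units with both reporters, below the 58.1, 42.6 and 53.1 of double-negative cells. Tfam averaged 32.4 against 49.1 units, also without overlap. The NRF1 motif in these promoters thus did not go with a higher Nrf1 transcript, and the part of NRF1 in the results was not tested.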

How the data were processed

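Expression was measured on 12 single-colour Affymetrix arrays of 4 sorted populations, with groups taken from the sample titles because the description of the sort misprints 1 population. Per the labels' protocols each array received biotin-labelled cRNA from 5 ug total RNA, and MAS5 is named in the submitters' processing notes with no version or scaling. The deposited values are linear probe set intensity values, without detection calls or read depth, and the number of arrays limits the precision.

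Probe sets annotated to 1 gene (34945 of 45101) were used, and log2(intensity + 4.10) was computed, the pseudocount being the 25th percentile. Genes under the 40th percentile of mean log2 value (3.22) were dropped, leaving 13698. The limma package (3.58.1, in R 4.3.3) was fitted to all 12 arrays (1 mean per population, 8 residual degrees of freedom), with two-sided contrasts, Benjamini-Hochberg adjustment over all genes tested and a threshold of 0.05. With 3 arrays against 3 an exact permutation test cannot go below 0.1. The fit was tested on simulated data with noise drawn independently for each array, whereas the arrays here deviate together by experiment. For double-positive against double-negative cells it recovered 5.8% of changes of 0.25 log2, 66.9% of 0.5 and 98.5% of 1. Of its calls, 5.7% were false. The simulation changed far fewer genes than the 4315 called in the real comparison. Its adjusted threshold was therefore stricter, and these recovery rates need not hold for the real data. Figures were drawn with matplotlib 3.10.9.

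Arrays of the same experiment letter deviated together: all 18 pairs correlated at 0.116 to 0.423, so the letters pair the arrays, and a fit with the letter as a block is an alternative. Other alternatives changed the pseudocount, normalization, filter, probe set, variance model and arrays used. Of 91 genes, 17 were read by probe sets whose suffix marks possible cross-hybridisation.

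Named were all isoform pairs, complex II, Cyc1, the 5 largest changes each way per comparison, the smallest p per complex and in the interaction, and up to 4 genes per other list. The members and lists were chosen with earlier results of these data known. RefSeq promoters are from GRCm38.p6.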

Additional observations from a re-analysis of the deposited data

Results flagged for a closer look

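The interaction of the reporters, that is, the difference in the dsRed contrast between cells with and without the green signal, was past the threshold for 12 genes (limma, Benjamini-Hochberg adjusted over all genes tested). All 12 values were positive. Among subunits they were 1.04 for Cox7a1, 0.69 for Cox5a, 0.65 for Sdhd, 0.63 for Cyc1, 0.62 for Atp5g1, 0.58 for Uqcrq, 0.52 for Ndufv2, 0.42 for Cox6c and 0.37 for Sdha. Among the assembly factors they were 0.68 for Ndufaf4, 0.67 for Ndufaf6 and 0.55 for Ndufaf3.

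The populations behind a positive value differed from gene to gene. Cox5a averaged 1160 units in double-positive, 647 in red-only, 794 in green-only cells and 720 in double-negative cells, so that double-positive cells stood above the rest. Ndufaf4 averaged 66.9 units in double-positive, 58.2 in red-only, 52.6 in green-only cells and 75.7 in double-negative cells, so that both single-reporter populations lay lowest. Uqcrq averaged 306 units in double-positive, 189 in red-only, 257 in green-only cells and 242 in double-negative cells, with red-only cells low. Ndufaf6 averaged 13.5 units in double-positive, 12.1 in red-only, 13.7 in green-only cells and 22.4 in double-negative cells, with all 3 reporter-bearing populations low. When each array was left out in turn, 7 of the 12 calls held throughout, and those of Uqcrq, Ndufaf3, Ndufaf6, Cox6c and Sdha were lost at least once.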

How the results depend on the processing

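In double-positive against double-negative cells the count of higher genes kept within 1.5 times of 66 under every alternative run. The paired fit, with the experiment letter as replicate block, gave 19 positive interactions and 1 gene higher in red-only than in green-only cells, and it raised Cox4i2 (0.29, adjusted p = 0.0409) and Ndufa4l2 (0.47, adjusted p = 0.00389) against red-only cells and Ndufa4l2 (0.32, adjusted p = 0.0447) against green-only cells past the threshold in double-positive cells. Beside these and the block values given in the report, it changed no other call among the named genes. Leaving out each array in turn gave 10 to 28 genes higher in double-positive than in green-only cells, 35 to 60 higher and 0 to 1 lower against red-only cells, and 7 to 13 positive interactions. Green-only cells gave 7 to 14 higher and 2 to 4 lower, red-only cells 2 to 4 higher and 1 to 7 lower against double-negative cells, and red-only against green-only cells 1 to 3 lower. For the isoform shifts, Cox7a1 over Cox7a2 in double-positive cells ran from 0.89 to 1.15, Cox6a2 over Cox6a1 in red-only cells from -0.13 to 0.31, and Cox8b over Cox8a in red-only cells from -0.17 to -0.01.

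With experiment A, B or C left out, an alternative chosen after seeing the data, the counts were as follows. Double-positive against green-only cells gave 6, 3 and 4 higher, and against red-only cells 26, 15 and 30 higher, with 0 lower without A or C. The interaction gave 7, 2 and 6. Double-positive against double-negative cells gave 2 lower without A and 1 without C. Green-only against double-negative cells gave 3 higher without B or C, and 2 and 1 lower. Red-only against double-negative cells gave 0 and 1 higher without B or C, and 2, 2 and 1 lower. Red-only against green-only cells gave 0 and 1 lower without B or C, and the F-test 28 and 35 genes. These fits have fewer arrays.

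The 6 arrays alone gave 5 genes higher in double-positive than in green-only cells. Quantile normalization gave 8 higher and 4 lower in red-only against double-negative cells. Second probe sets gave 4 lower there and 1 lower in red-only against green-only cells, and turned Ogdh (-0.01) and Atp5c1 against red-only cells (-0.03). Without assembly factors the counts of lower genes against double-negative cells were 2 (double-positive), 4 (red-only) and 1 (green-only), and 0 in double-positive against red-only cells. The shift of Cox6a2 over Cox6a1 in double-positive cells was 1.60 with a pseudocount of 1 and 0.32 on second probe sets (0.24 in green-only cells). That of Cox7a1 over Cox7a2 was 1.30 with a pseudocount of 1 and 0.84 without experiment B. That of Cox8b over Cox8a was -0.18 with a pseudocount of 1, -0.33 with one at the median and -0.24 after quantile normalization. It was -0.35 with the second probe set of Cox8a, while Cox8b has only 1 probe set. Where no construction shows it, the cause was not tested. Dim genes near the array medians, such as Cox8b, are limited by background.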
